A study of Saccharomyces cerevisiae with 18 samples.

Results

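The genes described here are RPN4 and 32 genes that encode subunits of the budding yeast 26S proteasome, 33 genes of the 6692 whose reads were counted. They were listed by systematic name from their known function, with earlier results of these data known. The small lid subunit gene SEM1 was not among the 32 and is counted below with the associated proteins. All 33 had a mean sense count of at least 10 reads and were among the 5567 genes tested. Newly synthesised RNA was sequenced from 3 strains of Saccharomyces cerevisiae (W303 background): Med16/Taf13-AID (GZY416), Med16/Spt20-AID (GZY359) and Spt20-AID (GZY378). Spt20 is a structural subunit of the coactivator SAGA, Med16 belongs to the tail of Mediator, and Taf13 is a subunit of TFIID. In each strain the named proteins carry an auxin-inducible degron, and the plant F-box protein OsTIR1, expressed from the GPD1 promoter in all 3 strains, targets them for destruction when the auxin 3-indoleacetic acid (3-IAA) is added. Each strain was treated for 30 min with 0.5 mM 3-IAA or with an equal volume of the solvent DMSO (a 2000-fold dilution), and new RNA was then labelled for 6 min with 4-thiouracil. There were 3 replicates of each of the 6 groups, 18 libraries in all. Fission yeast cells were mixed in before RNA extraction as a spike-in.

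The 26S proteasome degrades proteins that carry ubiquitin chains. Its core particle is a barrel of outer alpha rings and inner beta rings, with the proteolytic sites in the beta rings, and it is capped by a regulatory particle whose base contains the ubiquitin receptors and the Rpt ATPases that unfold substrates and whose lid removes the ubiquitin chains. Rpn4 is the transcription factor that drives the proteasome genes together, through a promoter sequence known as PACE (proteasome-associated control element). Rpn4 is itself a very short-lived proteasome substrate, which closes a feedback loop: when proteasome activity drops, Rpn4 accumulates. RPN4 transcription is in turn known to be driven by the stress factors Hsf1, Yap1, Pdr1 and Pdr3.

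The PACE motif is printed here because it is the feature that most of these promoters share and that RPN4 lacks. The 9 letters GGTGGCAAA were searched on both strands of the 500 bases before the start codon, a window that can reach into a neighbouring gene. They were found before 27 of the 32 subunit genes and before 98 of 5984 protein-coding genes (1.64%). Each of the 27 genes held a single copy, 84 to 183 bases before the start codon (median 120), 19 on the strand of the gene and 8 on the opposite strand. PRE5, PUP1 and RPN8 held the last 8 letters, GTGGCAAA, which stood before 3.78% of all genes. RPN10 and RPN13 held only the core GTGGC, which stood before 38.3% of all genes, and RPN4 held none of these. The sites of the subunit genes whose library values are given below follow, with PUP1 and RPN8 added for the shortened motif. They are RefSeq sequences of the build R64 (sacCer3), read 5′ to 3′ on the strand that carries the motif, which is in capitals.
RPN9, chrIV:1322086-1322114, plus strand: gctttcatccGGTGGCAAAagtaagaaca
RPN11, chrVI:153259-153287, plus strand: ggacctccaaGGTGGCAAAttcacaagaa
RPT5, chrXV:544855-544883, plus strand: gccaatatgtGGTGGCAAAaatgaattaa
PRE1, chrV:177683-177711, plus strand: aaatctttacGGTGGCAAAaaataaagaa
PRE9, chrVII:761223-761251, plus strand: ttaccctgcaGGTGGCAAAaaatttatag
PUP2, chrVII:999226-999254, minus strand: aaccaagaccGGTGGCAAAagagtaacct
PRE6, chrXV:255218-255246, minus strand: tttcccttccGGTGGCAAAagaatcttcg
PRE5, chrXIII:901553-901580, plus strand: ctattatagaGTGGCAAAattaaaaatt
PUP1, chrXV:631891-631918, minus strand: acccggccgaGTGGCAAAataccaaaaa
RPN8, chrXV:817085-817112, minus strand: ggatacctcaGTGGCAAAtcgttactca

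**Figure D1:**
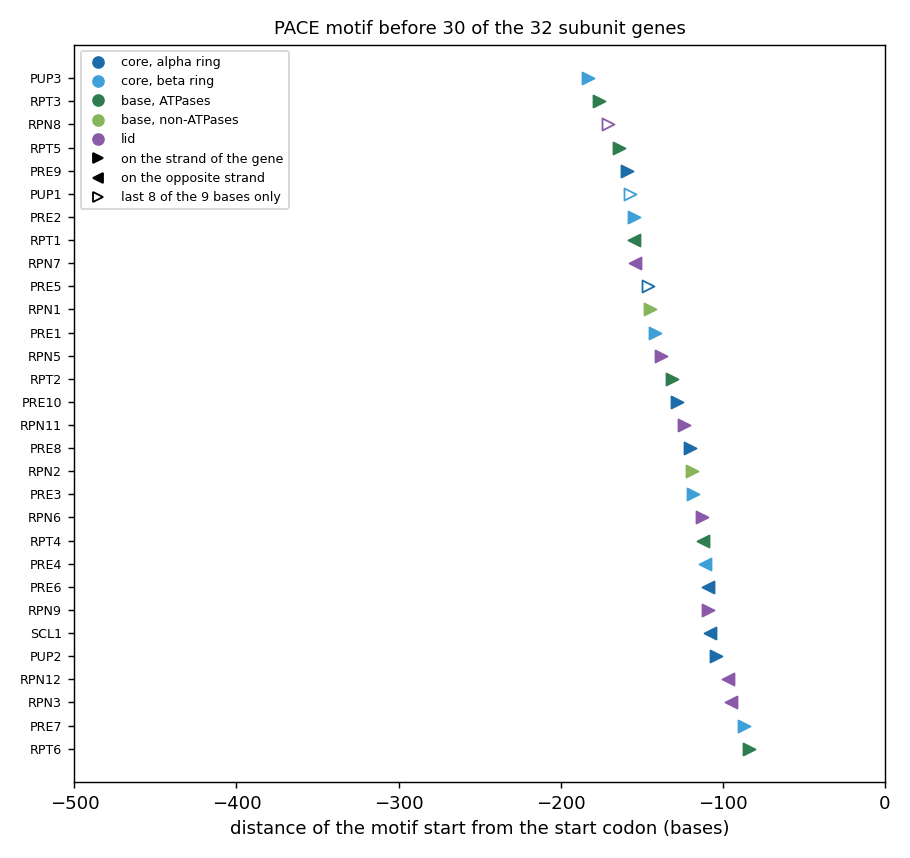
Distance from the start codon (bases, x axis) of the PACE motif before 30 subunit genes (rows, coloured by their place in the particle). Filled marks are the 9-letter motif of 27 genes, open marks the last 8 letters in PRE5, PUP1 and RPN8, and the direction of a mark gives the strand; the filled marks lie 84 to 183 bases before the start codon.

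The RPN4 promoter (RPN4, chrIV:415113-416708, minus strand) is shown for the letters of 2 of its known regulators. The stretch from 384 to 326 bases before the start codon, in the direction of the gene, holds the Yap1 element TTACTAA at 374 bases, which stood before 11.8% of all genes, and at 348 bases a heat shock element of 3 alternating triplets (TTC, GAA and TTC, each 2 bases apart, or the inverse), which stood before 1.49% of all genes. Both elements are in capitals.
RPN4, chrIV:417034-417092, minus strand: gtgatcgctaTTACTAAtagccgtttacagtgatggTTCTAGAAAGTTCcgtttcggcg
A heat shock element was also found 21 bases before the start codon of RPN4, and none was found before any of the 32 subunit genes. The palindrome TCCGCGGA, a Pdr1/Pdr3 element, stood before 0.635% of all genes and before none of the 33 genes in this window. Only these exact letters were searched, so a variant of the element in the RPN4 promoter would have been missed.

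Libraries held 874975 to 6189719 sense reads on genes, the fewest in Med16/Taf13-AID after 3-IAA. Counts were scaled by the spike-in unless said otherwise. The log2 changes of each strain's 5567 tested genes, 3-IAA over DMSO, had a median of 0.38 in Spt20-AID, 0.31 in Med16/Spt20-AID and -1.68 in Med16/Taf13-AID. For that reason the change of a gene is also given relative to the other genes of its library, with TMM scaling, which brought these medians to 0.02, 0.02 and -0.02. In the 3-IAA and DMSO libraries alike the mating type a genes MFA1, MFA2 and STE2 were read in every library, and the alpha-factor genes MF(ALPHA)1 and MF(ALPHA)2 had at most 8.89 normalised reads. STE3, the a-factor receptor gene of alpha cells, had 64.3 to 106 reads in Med16/Spt20-AID and 2.52 to 33.8 in the other strains, and the part of this difference in the results was not tested. The mRNAs of the degron targets remain readable by design, since the degron acts on the protein, so their counts do not check the labels. The Med16/Taf13-AID libraries come from another sequencing run, so that strain and run cannot be told apart. Every library carries a degron, so that depletion and any action of the auxin of its own cannot be told apart.

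RPN4 (YDL020C) was the member that stood apart most, and its change differed between the strains. In Spt20-AID cells RPN4 had 3310, 3108 and 3758 normalised reads after 3-IAA, against 2217, 2405 and 2346 after DMSO. All 3 values after 3-IAA lay above all 3 after DMSO, as they did in 49.2% of the tested genes. RPN4 averaged 3392 ± 332 reads after 3-IAA and 2323 ± 96.2 after DMSO (SD, n = 3 each), a log2 change of 0.55 ± 0.15 (SE) with an adjusted p of 0.000794 in edgeR's quasi-likelihood test. With TMM scaling the log2 change of RPN4 was 0.17 ± 0.08 and did not pass (adjusted p = 0.105, edgeR), and 26.4% of the tested genes had a larger one with the spike-in scaling. Without the third replicate pair of this strain the TMM value was 0.31 and passed (adjusted p = 0.00564, edgeR).

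In Med16/Spt20-AID cells RPN4 had 4858, 4752 and 4302 normalised reads after 3-IAA, against 5935, 5103 and 4481 after DMSO. The groups overlapped, with the lowest DMSO library below 2 of the 3-IAA libraries. The log2 change of RPN4 was -0.16 ± 0.15 (SE; adjusted p = 0.336, edgeR). Relative to other genes RPN4 fell, by 0.44 on the log2 scale (adjusted p = 5.66e-05, edgeR), as did 21.6% of the tested genes. On this scale 85.4% of the tested genes had a higher change than RPN4.

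In Med16/Taf13-AID cells RPN4 had 3829, 3833 and 3950 normalised reads after 3-IAA, against 5198, 6005 and 5599 after DMSO. All values after 3-IAA lay below all values after DMSO, as they did in 97.6% of the tested genes. RPN4 fell by 0.53 on the log2 scale (SE 0.15, adjusted p = 0.000318, edgeR), the smallest fall among the 33 genes and the place 81 from the top among the 5567 tested genes, 98.2% of which fell. Relative to other genes RPN4 rose by 1.13 ± 0.08 (SE, log2; adjusted p = 1.28e-11, edgeR), so the direction for RPN4 in this strain turns with the scaling.

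**Figure D2:**
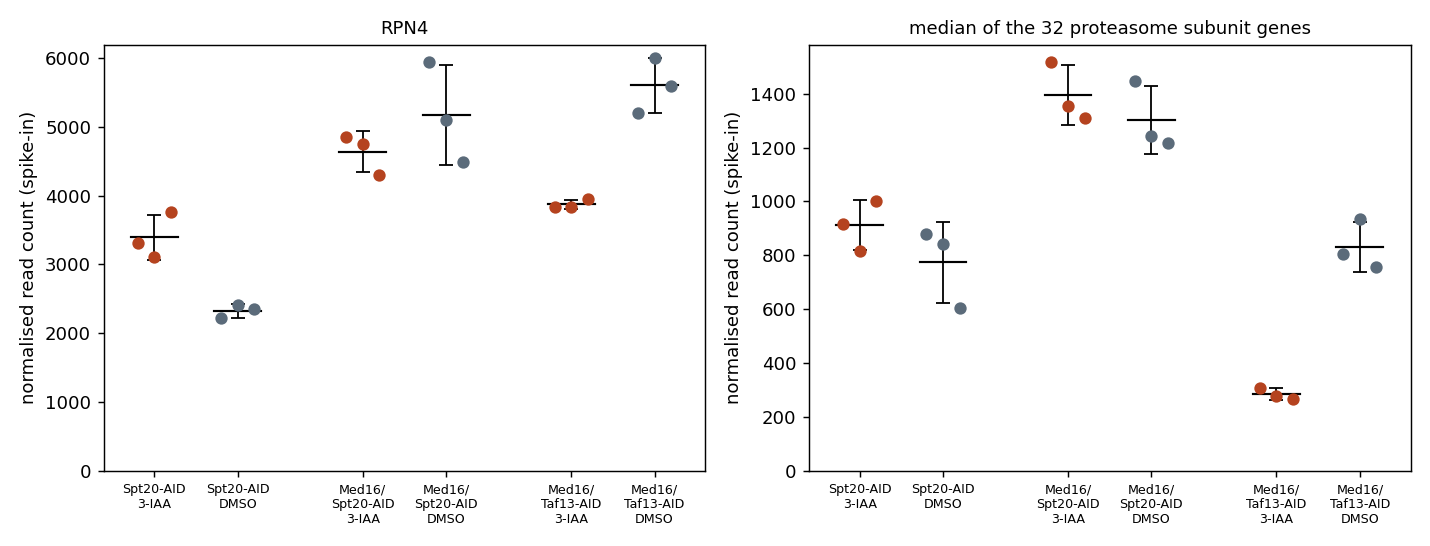
Spike-in normalised read counts (y axis) of RPN4, left, and of the median over the 32 subunit genes, right, in each of the 18 libraries (points), with the mean and SD of each group (lines). RPN4 averaged 3392 reads after 3-IAA and 2323 after DMSO in Spt20-AID, while the subunit median of Med16/Taf13-AID averaged 285 reads after 3-IAA and 833 after DMSO.

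The balance between activator and target genes can be read without any scaling, as RPN4 reads per 100 reads of the 32 subunit genes in the same library. In Med16/Taf13-AID it was 30.4, 31.5 and 32.5 after 3-IAA, against 15.3, 15.3 and 17.1 after DMSO. The groups were far apart, with means of 31.5 ± 1.08 after 3-IAA and 15.9 ± 1.03 after DMSO (SD, n = 3 each). In Med16/Spt20-AID it was 8.63, 8.94 and 8.50 after 3-IAA, against 10.9, 10.6 and 9.48 after DMSO. The groups again did not overlap, and here the 3-IAA libraries were the lower ones. In Spt20-AID it was 8.72, 9.48 and 9.41 after 3-IAA, against 6.52, 7.35 and 9.54 after DMSO, and the third DMSO library lay above all 3 of the 3-IAA libraries. These ratios are a description and were not tested.

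**Figure D3:**
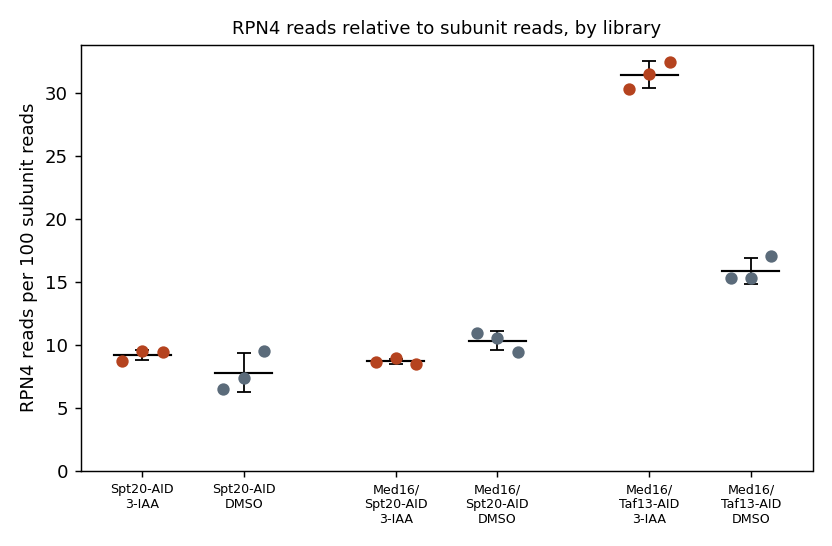
RPN4 reads per 100 reads of the 32 subunit genes (y axis) in each library (points), with the mean and SD of each group (lines). The Med16/Taf13-AID libraries lie between 30.4 and 32.5 after 3-IAA and between 15.3 and 17.1 after DMSO.

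The 32 subunit genes moved little in Spt20-AID. Their log2 changes were between 0.04 and 0.46 with a median of 0.26, below the median of 0.38 over all tested genes, and 29 of the 32 lay below that median. Of the 32, 11 rose and none fell, against 54% of the tested genes that rose and 8.08% that fell, so the share of subunit genes that rose was 34.4%. By place in the particle, 1 of 7 alpha ring genes (PRE9), 2 of 7 beta ring genes (PUP1 and PRE4), 2 of 6 ATPase genes (RPT3 and RPT5), 2 of 4 other base genes (RPN1 and RPN13) and 4 of 8 lid genes (RPN6, RPN7, RPN9 and RPN11) rose. The calls rested on the third replicate pair, whose DMSO library was low over these genes (subunit median of 603 normalised reads, against 880 and 842 in the other DMSO libraries) and over all tested genes alike. The change within that pair was 0.76 in the median tested gene and 0.70 in the median subunit gene (log2). Without that pair no subunit gene passed the test, the median log2 change was 0.06, and 22.7% of the tested genes rose. Without the second pair 22 of the 32 rose, as did 59.6% of the tested genes.

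RPN9 (YDR427W), a lid subunit, and RPN4 had the largest increases in Spt20-AID. RPN9 had 1474, 1308 and 1618 normalised reads after 3-IAA, against 1160, 1116 and 915 after DMSO, with no overlap. RPN9 was 1 of 7 subunit genes with every 3-IAA library above every DMSO library, as were 49.2% of the tested genes. Its log2 change was 0.46 ± 0.14 (SE; adjusted p = 0.00278, edgeR), and the adjusted p was 0.0799 without the third pair. At the other end stood the alpha ring genes PRE6 (YOL038W) and PUP2 (YGR253C). PRE6 had 651, 540 and 655 reads after 3-IAA, against 637, 730 and 433 after DMSO, and PUP2 had 818, 730 and 901 after 3-IAA, against 927, 823 and 568 after DMSO. Both genes overlapped between treatments, with log2 changes of 0.04 ± 0.14 for PRE6 and 0.08 ± 0.14 for PUP2 (SE; adjusted p = 0.810 and 0.625, edgeR). With TMM scaling PRE6, PUP2 and the alpha ring gene PRE10 fell, by 0.31, 0.27 and 0.19 on the log2 scale, and no subunit gene rose, against 25.1% of the tested genes that fell and 17.1% that rose with this scaling. The median of the 32 was -0.09, and a single gene of the 33 was called lower without the first or the second replicate pair, where 20% and 20.2% of the tested genes fell. With the replicate number as a block in this fit 9 of the 33 were called lower, as were 28.6% of the tested genes, and RPN4 rose (0.18, adjusted p = 0.0333, edgeR).

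In Med16/Spt20-AID the subunit genes lagged behind the rest of the genome. Their log2 changes were between -0.06 and 0.35 with a median of 0.10, while the median over all tested genes was 0.31, and 31 of the 32 lay below it. RPN10 (YHR200W), a ubiquitin receptor of the base and 1 of the genes without the PACE motif, was the exception and the 1 gene that rose, against 46.2% of the tested genes that rose and 10.3% that fell. RPN10 had 940, 971 and 896 normalised reads after 3-IAA, against 773, 739 and 686 after DMSO, with no overlap. RPN10 was 1 of 5 subunit genes with every 3-IAA library above every DMSO library, as were 54.2% of the tested genes. Its log2 change was 0.35 ± 0.14 (SE; adjusted p = 0.0244, edgeR), and leaving out any replicate pair of this strain ended the call (adjusted p of 0.0589, 0.155 and 0.115). RPT5 (YOR117W), an ATPase, had 2397, 2298 and 2220 reads after 3-IAA, against 1998, 1950 and 1807 after DMSO, also with no overlap, and a log2 change of 0.27 ± 0.14 that did not pass (adjusted p = 0.0917, edgeR). PRE1 (YER012W), a beta ring gene, had the lowest change among the subunit genes, with 1165, 1038 and 1031 reads after 3-IAA, against 1228, 1051 and 1097 after DMSO. These values overlapped, and the log2 change of PRE1 was -0.06 ± 0.14 (adjusted p = 0.700, edgeR).

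Relative to other genes, 16 of the 32 subunit genes fell in Med16/Spt20-AID and none rose, against 21.6% of the tested genes that fell and 11.9% that rose. The median log2 change of the 32 was -0.19, and it ran from -0.35 in PRE1 to 0.06 in RPN10. The falls came from every section of the particle: 2 of 7 alpha ring genes, 5 of 7 beta ring genes, 4 of 6 ATPase genes, 2 of 4 other base genes and 3 of 8 lid genes. All 16 held the 9-letter PACE motif, and the 5 subunit genes without it had a median of -0.08, against -0.21 for the 27 genes with it. That difference was not tested, and PRE5 and RPN8, without the full motif, lay at -0.17 and -0.16, near PRE2 at -0.18, which was called lower. The count depended on the libraries: leaving out 1 replicate pair of this strain left 5 to 10 of the 33 genes called lower in place of 17, RPN4 included, and 16.7% to 18.8% of the tested genes, while the median of the 32 stayed between -0.21 and -0.15.

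In Med16/Taf13-AID all 32 subunit genes fell with the spike-in scaling, as did 98.2% of the tested genes, and 0.0719% rose. Their log2 changes were between -1.94 and -1.15 with a median of -1.56, against -1.68 over all tested genes. All 32 had every 3-IAA library below every DMSO library, as had 97.6% of the tested genes. The largest falls were in the alpha ring genes PRE5 (YMR314W) and PRE9 (YGR135W). PRE5 had 223, 230 and 166 normalised reads after 3-IAA, against 804, 857 and 712 after DMSO, and fell by 1.94 on the log2 scale (SE 0.16, adjusted p = 3.50e-33, edgeR). PRE9 had 242, 202 and 180 reads after 3-IAA, against 682, 877 and 662 after DMSO, and fell by 1.83 (SE 0.16, adjusted p = 4.30e-30, edgeR). RPN9 kept the highest level among the subunit genes relative to DMSO. It had 466, 528 and 559 reads after 3-IAA, against 1070, 1393 and 990 after DMSO, and fell by 1.15 on the log2 scale (SE 0.15, adjusted p = 1.75e-14, edgeR).

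Relative to other genes, the subunit genes of Med16/Taf13-AID lay slightly high, with a median log2 change of 0.10 and a range of -0.27 to 0.52. Of the 32, 8 rose and 1 fell, against 15% of the tested genes that rose and 14.6% that fell. PRE6 of the alpha ring, RPT5 among the ATPases, the large base scaffolds RPN1 and RPN2 and the lid genes RPN5, RPN7, RPN8 and RPN9 rose, and PRE5 fell. RPN9 rose by 0.52 ± 0.08 (SE, log2; adjusted p = 2.15e-05, edgeR) and PRE6 by 0.37 ± 0.11 (adjusted p = 0.0110, edgeR), while PRE5 fell by 0.27 (SE 0.10, adjusted p = 0.0434, edgeR). No beta ring gene passed the test in this strain with TMM scaling. Without replicate pair 1, 2 or 3 of this strain, 6, 5 and 5 of the 32 rose, as did 13%, 12.9% and 12% of the tested genes. The call of PRE5 was lost when replicate pair 1 or 3 of this strain was left out. With median-of-ratios scaling PRE5 did not pass either (adjusted p = 0.0655, edgeR).

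**Figure D4:**
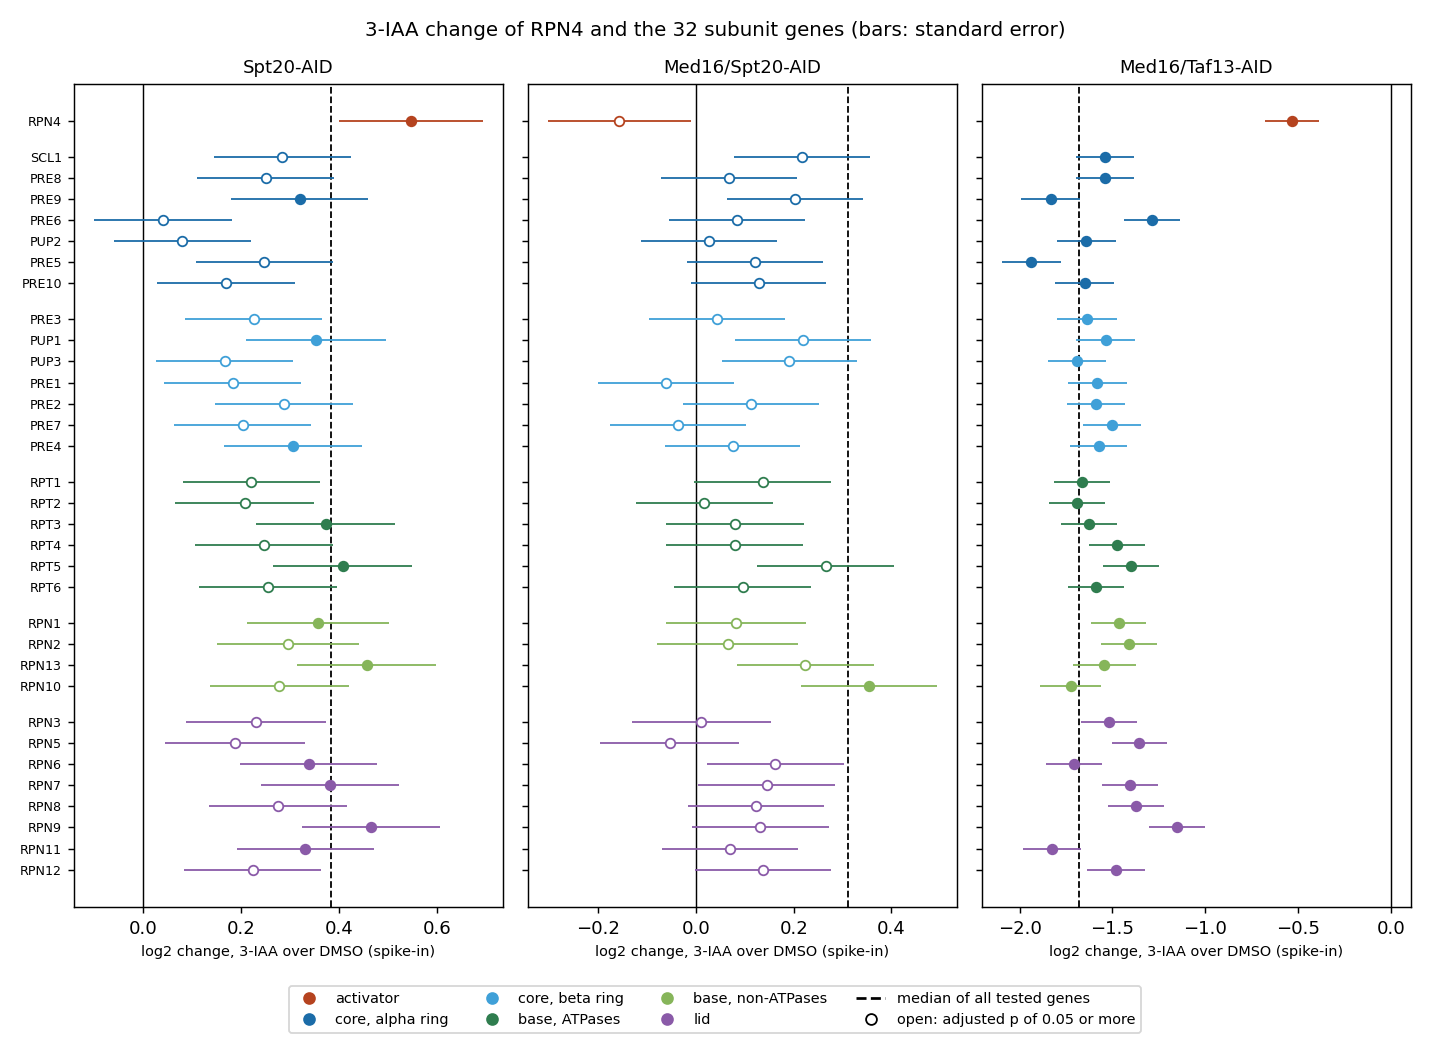
Log2 change, 3-IAA over DMSO with spike-in scaling (x axis, with its own range in each panel), of RPN4 and the 32 subunit genes (rows, coloured by place in the particle) in each strain, with the standard error. Filled points passed an adjusted p of 0.05, and the dashed line is the median over all 5567 tested genes (0.38, 0.31 and -1.68); RPN4 lies at 0.55, -0.16 and -0.53.

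**Figure D5:**
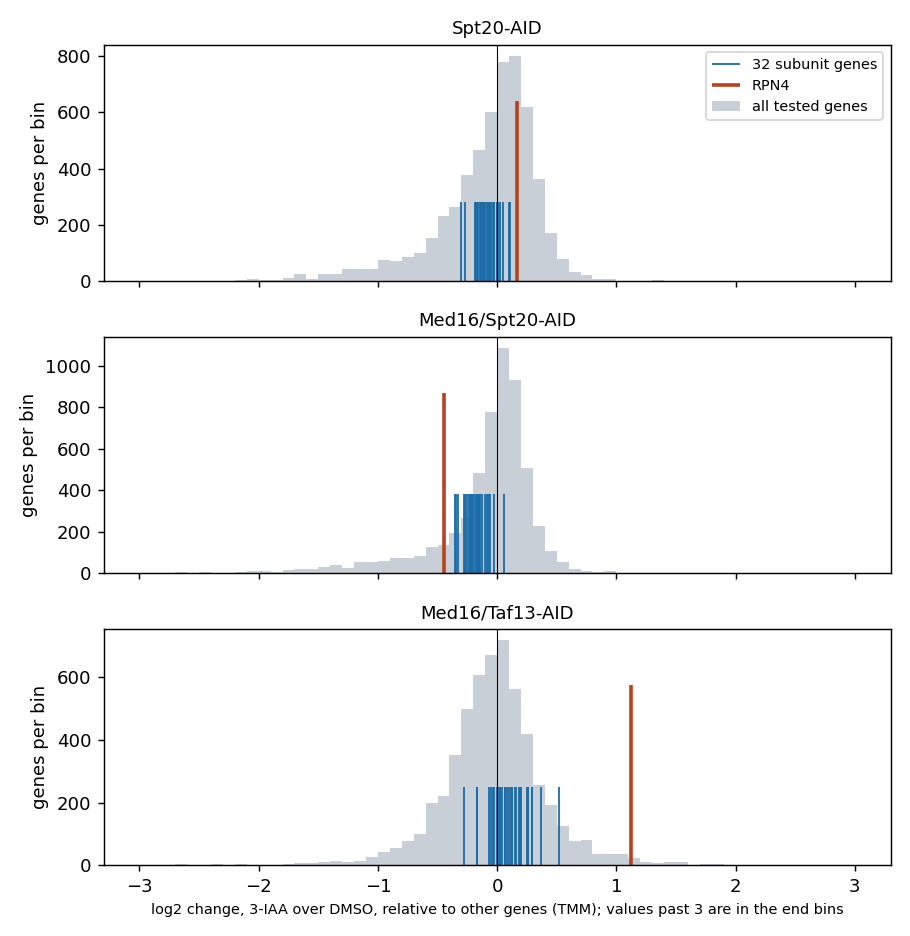
Number of tested genes (y axis) by log2 change with TMM scaling, 3-IAA over DMSO (x axis), in each strain, with the 32 subunit genes as blue lines and RPN4 as a red line, whose heights carry no value. RPN4 lies at 0.17 in Spt20-AID, -0.44 in Med16/Spt20-AID and 1.13 in Med16/Taf13-AID, while the medians of the subunit genes are -0.09, -0.19 and 0.10.

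The difference between strains was tested directly, as the 3-IAA change of 1 strain minus that of another. Between Med16/Spt20-AID and Spt20-AID, RPN4 had the lower change in Med16/Spt20-AID, by -0.70 ± 0.21 (SE, log2; adjusted p = 0.0255, edgeR). No subunit gene passed, against 2.64% of the tested genes that were lower in Med16/Spt20-AID and 0.611% that were higher, and none had an unadjusted p under 0.05. DESeq2 with the same scaling likewise called RPN4 alone. The strains also differed after DMSO, where RPN4 averaged 5173 normalised reads in Med16/Spt20-AID and 2323 in Spt20-AID. RPN4 reads per 100 subunit reads averaged 10.3 and 7.81 after DMSO, and 8.69 and 9.20 after 3-IAA. The part of the DMSO levels in the difference was not tested. The difference in RPN4 kept its direction and size without each replicate pair (-0.79 to -0.63), but its adjusted p missed the threshold without the first pair of Spt20-AID (0.111) and without the pair 1, 2 or 3 of Med16/Spt20-AID (0.266, 0.126 and 0.0876). The study's methods split cells into a 3-IAA and a DMSO fraction without tying the replicate number to a culture, and with that number as a block RPN4 did not pass (-0.69, adjusted p = 0.0618, edgeR). With TMM scaling the difference in RPN4 was -0.61 ± 0.12 (adjusted p = 0.000475, edgeR), against 7.24% of the tested genes that were lower with this scaling and 8.19% that were higher, and RPN4 passed without each replicate pair. Of the subunit genes, RPN10 and PRE6 had the highest differences, 0.08 ± 0.20 and 0.04 ± 0.20, and RPN9 the lowest, -0.33 ± 0.20 (adjusted p of 0.906, 0.949 and 0.493, edgeR).

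Between Med16/Taf13-AID and Med16/Spt20-AID, all 32 subunit genes had the lower change in Med16/Taf13-AID, as did 93.9% of the tested genes, and 0.449% had the higher. Their differences ran from -2.08 in RPN10 and -2.06 in PRE5 to -1.28 in RPN9, with a median of -1.67 against -1.99 over all tested genes. RPN4 differed by -0.38 ± 0.21 (SE; adjusted p = 0.0739, edgeR), and 4.60% of the tested genes had a higher difference. The call for RPN4 depends on the fit, since DESeq2 gave an adjusted p of 0.0172. Relative to other genes RPN4 had the higher change in Med16/Taf13-AID by 1.57 ± 0.12 (adjusted p = 1.38e-12, edgeR), and so had 16 of the 32 subunit genes, against 20.3% of the tested genes higher and 14% lower. RPN9 differed by 0.67 ± 0.11 (adjusted p = 1.26e-05, edgeR). The lid held 6 of these 16 genes, the beta ring and the ATPases 3 each, and the alpha ring and the other base genes 2 each. Of all 33 genes, 17 were called higher on this scale, and 11 without the third pair of Med16/Spt20-AID or without the first pair of Med16/Taf13-AID, where 17.8% and 17.2% of the tested genes were.

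Between Med16/Taf13-AID and Spt20-AID, RPN4 had the lower change in Med16/Taf13-AID, by -1.08 ± 0.21 (SE; adjusted p = 2.66e-07, edgeR), and so had all 32 subunit genes, against 95.5% of the tested genes lower and 0.449% higher. The differences of the subunit genes ran from -2.18 in PRE5 and -2.16 in RPN11 (YFR004W), the deubiquitinase of the lid, to -1.33 in PRE6. RPN11 had 330, 245 and 258 normalised reads after 3-IAA in Med16/Taf13-AID, against 967, 1082 and 901 after DMSO, and 1059, 952 and 1125 after 3-IAA in Spt20-AID, against 936, 884 and 675 after DMSO. Its treatment groups were apart in both strains, in opposite directions. Every 3-IAA library lay below every DMSO library in 97.6% of the tested genes in Med16/Taf13-AID, and above in 49.2% in Spt20-AID. With TMM scaling RPN4 and 8 of the 32 subunit genes had the higher change in Med16/Taf13-AID, against 19.1% of the tested genes higher and 13.9% lower, with 0.96 ± 0.12 for RPN4 (adjusted p = 6.33e-08, edgeR) and 0.67 ± 0.14 for PRE6 (adjusted p = 0.000355, edgeR). RPN11 lay at -0.14 ± 0.11 on this scale and did not pass (adjusted p = 0.353, edgeR). The differences between the strains use shared libraries and are therefore not independent of each other.

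The subunit genes sat close together in level, which is a description and was not tested. Per kilobase of coding sequence, the DMSO levels of the 32 genes spanned 2.79-fold in Spt20-AID, 2.47-fold in Med16/Spt20-AID and 2.86-fold in Med16/Taf13-AID. PUP1 and RPN10 were the lowest and RPN5, a lid gene, the highest in all 3 strains. RPN4 was above each of them, at 1.61 times the subunit median in Spt20-AID, 2.27 times in Med16/Spt20-AID and 3.55 times in Med16/Taf13-AID. Nearly all reads lay on the coding strand: antisense reads were at most 2.24% of a member's reads, in PRE1, and 0.102% in RPN4.

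Other genes of the pathway were read from lists of known function. Of 14 assembly factors and proteasome-associated proteins, 11 rose in Spt20-AID, 9 rose in Med16/Spt20-AID, none fell in these strains, and all 14 fell in Med16/Taf13-AID with the spike-in scaling, against the shares of all genes given above (54% and 46.2% higher, 98.2% lower). NAS6, a chaperone of the base, rose by 0.83 ± 0.16 in Spt20-AID (SE, log2; adjusted p = 1.83e-06, edgeR), and POC4, a chaperone of the alpha ring, by 0.69 ± 0.18 in Med16/Spt20-AID (adjusted p = 0.000720, edgeR). RPN14, a base chaperone that is absent from the mature particle, fell furthest in Med16/Taf13-AID. It had 38.1, 44.2 and 29.3 normalised reads after 3-IAA, against 254, 269 and 254 after DMSO, and fell by 2.79 on the log2 scale (SE 0.21, adjusted p = 2.11e-38, edgeR) and by 1.13 relative to other genes (adjusted p = 1.45e-06, edgeR). With TMM scaling the list as a whole had medians of 0.09 in Med16/Taf13-AID, 0.08 in Med16/Spt20-AID and 0.13 in Spt20-AID.

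Of 8 genes for ubiquitin and its delivery to the proteasome, 3 rose in Spt20-AID and none fell, where 54% of the tested genes rose. In Med16/Spt20-AID 2 rose and UBI4 fell, where 46.2% rose and 10.3% fell, and all 8 fell in Med16/Taf13-AID, as did 98.2% of the tested genes. UBI4, the stress-induced polyubiquitin gene, is described because of its values, which were seen first. It had 1222, 1210 and 1121 normalised reads after 3-IAA in Med16/Spt20-AID, against 2377, 1963 and 2132 after DMSO, with the groups far apart, and fell by 0.86 on the log2 scale (SE 0.14, adjusted p = 2.64e-08, edgeR). Every 3-IAA library lay below every DMSO library in 12.1% of the tested genes of this strain. In Med16/Taf13-AID UBI4 fell by 0.74 (adjusted p = 2.69e-07, edgeR), less than the median gene, and relative to other genes it rose by 0.93 ± 0.09 (adjusted p = 5.01e-09, edgeR). In Spt20-AID its log2 change with the spike-in scaling was -0.22 ± 0.14 and did not pass (adjusted p = 0.158, edgeR). UBI4 had the lowest change of the 8 genes there, as it had in Med16/Spt20-AID. With TMM scaling the lowest change among the 8 was -0.57 for Spt20-AID, where 2 fell, against 25.1% of the tested genes. For Med16/Spt20-AID the lowest was -1.16, where 4 fell, against 21.6%. With the spike-in scaling the change of UBI4 was lower in Med16/Spt20-AID than in Spt20-AID by -0.64 ± 0.20 (adjusted p = 0.0425, edgeR). Of the tested genes 2.64% were lower and 0.611% higher. This call is near the threshold, and its dependence on the replicate pairs or the replicate block is not given here.

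Of 8 genes that act on RPN4 transcription or on the turnover of Rpn4, 6 rose in Spt20-AID, HSF1 rose in Med16/Spt20-AID, and all 8 fell in Med16/Taf13-AID, where 54% and 46.2% of the tested genes rose and 98.2% fell. UBR2, the ubiquitin ligase that marks Rpn4, rose by 0.73 in Spt20-AID, and its partner MUB1 rose by 0.40, near the 0.38 of the median gene. With TMM scaling 3 of the 8 rose and 1 fell in Spt20-AID, against 17.1% and 25.1% of the tested genes. In Med16/Spt20-AID 4 fell and none rose, against 21.6% and 11.9%. In Med16/Taf13-AID 1 rose and none fell, against 15% and 14.6%. YAP1, whose product binds the element in the RPN4 promoter, fell by 0.45 relative to other genes in Med16/Spt20-AID and by 0.29 in Spt20-AID and rose by 0.25 in Med16/Taf13-AID (adjusted p of 1.25e-06, 0.000743 and 0.00797, edgeR). YAP1 was the 1 gene of the 8 that fell in Spt20-AID and the 1 that rose in Med16/Taf13-AID on this scale. Any link between YAP1 and RPN4 was not tested. With the spike-in scaling YAP1 changed by -0.15 and 0.09 in Med16/Spt20-AID and Spt20-AID without passing, and fell by 1.41 in Med16/Taf13-AID.

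The PACE motif also stands before genes outside the proteasome. The 69 other tested genes with the 9-letter motif had median log2 changes relative to other genes of 0.01 in Spt20-AID, -0.06 in Med16/Spt20-AID and 0.07 in Med16/Taf13-AID, and ranged in Med16/Taf13-AID from -0.92 to 2.11. The 27 subunit genes with the motif ranged there from -0.17 to 0.52. These classes were compared after the values were known and were not tested.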

How the data were processed

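Per the labels and the study's methods, the authors aligned stranded reads to sacCer3 with STAR 2.6.1a, which deposited gene counts for unstranded, first-strand and second-strand reading. The deposited sense counts, whole numbers of reads per gene, were used, and the authors' own test was DESeq2 with a fission yeast spike-in. Scaling used the authors' spike-in factors, solved for by least squares so that the sense counts gave the study's listed mean normalised counts (1950 genes). The median error was 6.88e-05% over the 1396 genes with a listed mean of at least 100. Identifiers were matched to RefSeq R64 (6008 of 6692).

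The 5567 genes that averaged 10 or more sense reads were fitted with edgeR 4.0.16 (quasi-likelihood test, R 4.3.3) on all 18 libraries with 6 groups. Standard errors are the log2 change divided by the root of the F statistic. P-values were adjusted by Benjamini-Hochberg over all tested genes, with calls at 0.05. TMM scaling, DESeq2 1.42.0, other filters, strand, length and replicate alternatives were refitted, and the main fit was tested on simulated data. The simulated counts had the same spread in every gene, few changed genes, no replicate pair effect and no shift of most genes. They therefore do not check how the fit handles those features of the real libraries. Values of every library are given for RPN4 in each strain, and for the 2 highest and 2 lowest genes of each strain in that strain. For the genes named in the differences between strains they are given in part. The 33 genes, lists and motifs were chosen with earlier results of these data known. Replicates are separate libraries of 1 strain, which the paper calls biological triplicates. The p-values rest on a spread between replicates that was estimated jointly over all 6 groups, without pairing by replicate number.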

Additional observations from a re-analysis of the deposited data

Results flagged for a closer look

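The 3-IAA change of RPN4 differed between strains in the test of the difference itself, by -0.70 (log2) for Med16/Spt20-AID against Spt20-AID and by -1.08 for Med16/Taf13-AID against Spt20-AID. The first of these did not pass in a fit with the replicate block (adjusted p = 0.0618, edgeR). It also missed the threshold without the first pair of Spt20-AID and without any single pair of Med16/Spt20-AID. The median difference over all tested genes was -0.10 in the first comparison and -2.06 in the second. With TMM scaling the differences of RPN4 were -0.61 and 0.96, so the direction of the second turns with the scaling. The 32 subunit genes had a lower 3-IAA change in Med16/Taf13-AID than in Med16/Spt20-AID (32 of 32) and than in Spt20-AID (32 of 32), as had most tested genes.

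Antisense reads, which enter no comparison above, were higher in every 3-IAA library than in every DMSO library for a few members. Among genes with a mean of at least 10 normalised antisense reads after 3-IAA this held for 4 of 5 members in Spt20-AID, against 45.6% of such tested genes, and for 3 of 7 in Med16/Spt20-AID, against 42.5%. The floor was set on the 3-IAA mean alone, for members and tested genes alike, so it favours genes higher after 3-IAA. PUP2 and RPT4 in Spt20-AID and PRE3 in Med16/Spt20-AID had a mean under 10 after DMSO. The floor left out PRE9 in both strains (8.46 after 3-IAA and 11.57 after DMSO in Spt20-AID). It also left out PRE5 in Med16/Spt20-AID (5.04 and 10.18). The shares therefore do not show how often antisense reads rose among all members. In Spt20-AID the mean normalised antisense counts were 10.7 after 3-IAA and 6.66 after DMSO for PUP2, 26.5 and 14.3 for PRE1, 15 and 9.56 for RPT4, and 26.6 and 16.5 for RPN9. In Med16/Spt20-AID they were 10.4 after 3-IAA and 5.10 after DMSO for PRE3, 27.4 and 18.9 for PRE1, and 16.7 and 11.4 for RPN10. These counts are few reads, and they were not tested.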

How the results depend on the processing

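Another scaling turned or moved many of the values, and the counts given are of all 33 genes. With TMM scaling the counts in Spt20-AID were 0 higher and 3 lower (12 and 0 with the spike-in), and with median-of-ratios scaling 0 and 2. RPN4 changed there by 0.17 with TMM and 0.19 with median-of-ratios scaling, PRE6 by -0.31 and -0.29, and PUP2 by -0.27 and -0.25. In Med16/Spt20-AID the counts were 0 higher and 17 lower with TMM and 0 and 16 with median-of-ratios scaling (1 and 0 with the spike-in), the subunit median was -0.19 and -0.16, RPN4 changed by -0.44 and -0.42, and RPT5 by -0.027 and -0.0028. In Med16/Taf13-AID they were 9 higher and 1 lower with TMM and 10 and 0 with median-of-ratios scaling (0 and 33 with the spike-in), the subunit median was 0.10 and 0.12, RPN4 changed by 1.13 and 1.15, and RPN9 by 0.52 and 0.54. For Med16/Taf13-AID against Med16/Spt20-AID the counts were 17 and 16 higher and 0 and 0 lower, the subunit median was 0.28 and 0.28, and the differences were 1.57 and 1.57 for RPN4 and 0.67 and 0.67 for RPN9. Against Spt20-AID the counts were 9 and 9 higher and 0 and 0 lower, the subunit median was 0.20 and 0.20, and the differences were 0.96 and 0.96 for RPN4 and 0.67 and 0.67 for PRE6. These turns follow from the construction of the scalings, which set the median gene near 0.

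Scaling on the unmapped reads, an alternative chosen after seeing the data, gave 21 genes higher in Spt20-AID, none (0) in Med16/Spt20-AID, 3 lower for Med16/Spt20-AID against Spt20-AID, subunit medians of -0.046 in Med16/Spt20-AID, -1.40 in Med16/Taf13-AID and -1.36 for Med16/Taf13-AID against Med16/Spt20-AID, and differences between Med16/Spt20-AID and Spt20-AID of -0.10 for RPN10 and -0.15 for PRE6. With only the libraries compared, 3 genes rose in Spt20-AID, 2 rose in Med16/Spt20-AID, and RPN4 passed for Med16/Taf13-AID against Med16/Spt20-AID (-0.38, adjusted p = 0.0304, edgeR), as it did in DESeq2 (-0.38). With the length trend removed the difference of PRE6 between Med16/Spt20-AID and Spt20-AID was -0.0039.

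The same-numbered libraries of a strain share a number, and 7 of 9 pairs had a correlation over 0.1 in their deviations from the group means, while 15 of 18 libraries correlated best with their own number. With the replicate block the difference of RPN4 between Med16/Spt20-AID and Spt20-AID was -0.69 (adjusted p = 0.0618, edgeR, and 0 genes lower), with the length trend also removed -0.66 (0 lower) and for PRE6 -0.028. With the replicate block under TMM scaling Spt20-AID had 1 gene higher and 9 lower, with RPN4 at 0.18, and Med16/Spt20-AID against Spt20-AID had 3 lower.

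Leaving out 1 replicate pair at a time gave 1 to 23 genes higher in Spt20-AID, with PRE6 at -0.20 to 0.29 and PUP2 at -0.18 to 0.23, and with TMM scaling 0 to 1 higher, 1 to 2 lower and RPN4 at 0.12 to 0.31. It gave 0 genes higher in Med16/Spt20-AID, with TMM scaling 5 to 10 lower, and in Med16/Taf13-AID 6 to 7 higher and 0 to 1 lower with TMM scaling. For Med16/Taf13-AID against Spt20-AID it gave 6 to 9 higher with TMM scaling. For Med16/Spt20-AID against Spt20-AID it gave 0 to 1 lower, with RPN4 at -0.79 to -0.63, RPN10 at -0.059 to 0.27 and PRE6 at -0.21 to 0.28, and for Med16/Taf13-AID against Med16/Spt20-AID 11 to 14 higher with TMM scaling. A left-out replicate means both of its libraries, so that 2 remain in each group of that strain, and the fits that combine TMM scaling with left-out replicates or the block were chosen after seeing the data. In all, 658 of 783 alternative values kept their direction and side of the threshold, or for counts stayed within 1.5 times and for medians within 1 SD. A count of 0 in both fits was taken as kept, and the SD was that of the replicate pair medians. The subunit median of Spt20-AID therefore counted as kept, though it was 0.26 with the spike-in and -0.09 with TMM scaling. The share is a tally by these rules and not a measure of stability. Where a call changed other than by scaling or by fewer libraries, the cause was not tested. The Med16/Taf13-AID libraries after 3-IAA were the shallowest (874975 to 1029147 sense reads), which limits the precision of that comparison.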
